A study of Rattus norvegicus with 24 samples.

Results

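The 10 genes Bcl2, Bcl2l1, Bcl2l2, Mcl1, Bax, Bak1, Bok, Bcl2l11, Bid and Bad of the BCL2 family were followed in male germ cells of young and aged rats. They were chosen by name, and a probe set was kept where the array annotation gave it exactly 1 gene symbol. This left 17 probe sets of 9 genes, among the 31042 probe sets of the array that are not controls, or 9 of 14217 genes with such a probe set. The pro-survival genes Bcl2, Bcl2l1, Bcl2l2 and Mcl1 had 8 of the 17, the effectors Bak1 and Bok 3, and the BH3-only genes Bcl2l11, Bid and Bad 6; effectors and BH3-only genes together are called pro-death here. Bax had 1 probe set, which carried 2 symbols, so no value is given for it.

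Total RNA of pachytene spermatocytes, which are germ cells in meiosis, and of round spermatids, their haploid descendants, was hybridised to 24 Affymetrix rat expression arrays. The cells came from 12 Brown Norway rats with no treatment or genetic change given in the labels, and by the rat numbers in the sample titles each rat gave both fractions. The 4 groups were round spermatids of rats aged 18 months, round spermatids of rats aged 4 months, pachytene spermatocytes of rats aged 18 months and pachytene spermatocytes of rats aged 4 months, with 6 arrays in each. Testes were digested with collagenase and trypsin and cells were separated by sedimentation in a density gradient, with a stated purity above 83%, so each fraction can hold other cells.

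BCL2 family proteins decide whether the outer mitochondrial membrane stays intact. Pro-survival members hold the effectors Bax and Bak in check, BH3-only members relieve this hold or activate the effectors directly, and the opened membrane releases cytochrome c, which starts caspase activation. In the testis the family is known for the wave of germ cell death in early postnatal life. Male mice without Bax, and male mice without Bcl2l2 (Bcl-w), are sterile.

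The labelled cell types were matched by their markers. Of 11 measured pachytene spermatocyte markers, 10 were lower and 1 was higher in round spermatids than in pachytene spermatocytes, and all 8 measured round spermatid and acrosome markers and all 15 late spermiogenesis markers were higher. Over all probe sets 46.9% were higher and 38.3% lower in this comparison. Markers of Sertoli cells, the somatic nurse cells of the tubule, were present: 21 of 27 listed were measured, and the mean signal of 15 of them in aged and 19 in young pachytene arrays, and of 13 in aged and 14 in young round arrays, was above the array median. The first principal component of the pachytene arrays held 73.9% of their variance and set young rats 1, 10 and 11 off (scores of -86.3, -47.1 and -44.0, against -7.38 to 3.78 for the other 3 young rats and 16.2 to 39.6 for the aged rats). Results are therefore also given without these rats where a member call changed. Array medians on the deposited scale were 7.67 to 7.86 in aged and 7.56 to 7.71 in young round arrays, and 6.62 to 6.92 in aged and 7.02 to 7.38 in young pachytene arrays. The bacterial TrpnX control, which no rat RNA should match, averaged 6.83 in round and 4.28 in pachytene arrays, so the effect of cell type on a dim probe set and that of background cannot be told apart. In bulk RNA, fewer cells of a type and less RNA per cell cannot be told apart.

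The promoters of 3 members are shown because Bcl2 and Bcl2l11 had the largest increases, and Bad the largest decrease, among the members in round spermatids against pachytene spermatocytes. They are the 250 bases before an annotated start in RefSeq, build GRCr8, 5′ to 3′ on the gene's strand: Bcl2 on the minus strand at chr13:23366901-23367150, Bcl2l11 on the plus strand at chr3:135819792-135820041, and Bad on the plus strand at chr1:213562864-213563113. Capitals mark any of 6 motifs searched on both strands: the GC box GGGCGG, the CCAAT box CCAAT, the cAMP response element TGACGTCA, the FOXO motif GTAAACA, the MYB motif CAACTG and the TATA box TATAAA.
Bcl2: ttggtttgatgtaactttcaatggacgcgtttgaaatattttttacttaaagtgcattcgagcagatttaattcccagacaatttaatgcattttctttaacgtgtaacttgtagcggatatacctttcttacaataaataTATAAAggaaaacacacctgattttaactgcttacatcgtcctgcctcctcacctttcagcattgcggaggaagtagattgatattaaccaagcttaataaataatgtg
Bcl2l11: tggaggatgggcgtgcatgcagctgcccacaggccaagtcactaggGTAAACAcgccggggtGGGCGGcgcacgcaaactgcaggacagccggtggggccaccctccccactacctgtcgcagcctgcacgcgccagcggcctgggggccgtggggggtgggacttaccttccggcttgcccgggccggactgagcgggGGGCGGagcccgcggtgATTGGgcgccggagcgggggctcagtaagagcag
Bad: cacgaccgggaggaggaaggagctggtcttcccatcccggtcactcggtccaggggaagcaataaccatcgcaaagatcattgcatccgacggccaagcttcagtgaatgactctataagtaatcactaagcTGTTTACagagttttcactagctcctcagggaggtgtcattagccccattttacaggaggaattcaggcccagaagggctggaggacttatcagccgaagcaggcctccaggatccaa

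In these windows the Bcl2 promoter held 1 TATAAA and no GC box, with a GC content of 33.6%. The Bcl2l11 promoter held 2 GC boxes, 1 CCAAT and 1 FOXO motif at a GC content of 72%, and the Bad promoter held 1 FOXO motif at 52.4%. Over the 33469 promoters in the table, 30.5% held the GC box, 34% CCAAT, 1.59% TGACGTCA, 3.21% the FOXO motif, 11.4% the MYB motif and 12.9% TATAAA, and the median GC content was 51.2%. The table held 11 promoters of 8 of the 10 genes, 4 of them of Bcl2l1, and none of Bax or Bok. Of the 11, 5 held the GC box, 3 CCAAT, 2 the FOXO motif, 1 TATAAA, and none held TGACGTCA or the MYB motif. The Bcl2l1 windows with CCAAT (chr3:161763251-161763500 and chr3:161763386-161763635) overlap, so they may hold the same site. No pair of the motifs shares a site by its letters, and a match describes the sequence only.

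Levels are given as log2 signals, and a probe set's place within an array as its percentile among all probe sets of that array, which no rescaling of the array changes. Probes differ in how strongly they bind, so a percentile describes a probe set and does not rank the genes. Bcl2l1 (Bcl-x, 1370812_at) averaged the 92.9th percentile in aged and the 91.7th in young round spermatids, and the 87.8th in aged and the 85.9th in young pachytene spermatocytes. Of the 17, 4 lay on average below the 40th percentile in all 4 groups: 1369611_at of Bcl2l2, 1368066_at of Bak1, 1388742_at of Bcl2l11 and 1369683_at of Bid. These are called dim in the following.

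**Figure D1:**
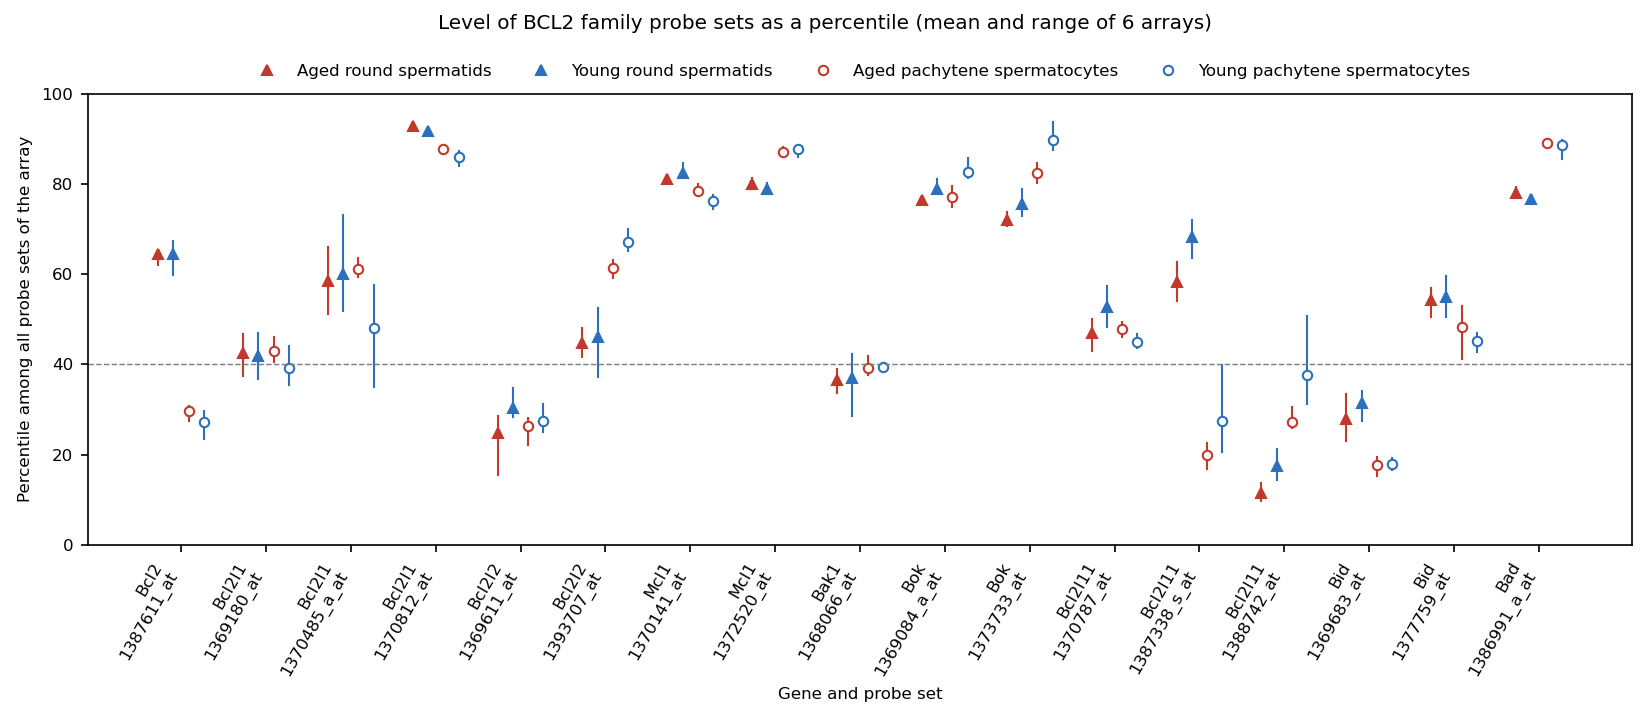
Percentile of each of the 17 probe sets among all probe sets of its array (y axis), as mean and range of 6 arrays for aged and young round spermatids and aged and young pachytene spermatocytes, with the 40th percentile as a dashed line. Bcl2 lay at 64.4 in both round groups against 29.6 in aged and 27.3 in young pachytene spermatocytes, and Bad at 78.0 and 76.7 in aged and young round spermatids against 89.1 and 88.5 in aged and young pachytene spermatocytes.

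The first question was which members changed with age in pachytene spermatocytes. In aged pachytene spermatocytes Bok fell on both of its probe sets, by 2.00-fold on 1373733_at and 1.53-fold on 1369084_a_at, and Bcl2l1 rose on 2 of its 3. Bcl2l11 (Bim) and Bcl2l2 also had probe sets that fell. By limma with Benjamini-Hochberg adjustment over all probe sets, 9 of the 17 member probe sets passed an adjusted p of 0.05, 4 higher and 5 lower. Over all probe sets 37.5% passed, 22.1% higher and 15.4% lower, so such calls were common on these arrays, and Bok and Bcl2l11 gave 5 of the 9 member calls. The split of the members depended on the scale: 6 were higher and 4 lower after median centring, 1 and 10 on the deposited scale, and 1 and 5 after centring on the hybridization controls. The groups did not overlap for 5 member probe sets, 1 above and 4 below, against 21% of all probe sets.

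Among the pro-survival members, Bcl2l1 1370485_a_at had log2 signals of 7.59, 7.70 and 7.92 (lowest, median and highest of 6) in aged and 6.15, 6.97 and 7.47 in young pachytene spermatocytes. All 6 aged rats lay above all 6 young rats, with a log2 change of 0.82 ± 0.18 (SE; limma adjusted p = 0.00499). The ending _a_at marks a probe set that matches several transcripts of 1 gene. Bcl2l1 1370812_at had 10.31, 10.43 and 10.52 in aged and 9.92, 10.22 and 10.36 in young rats, and its groups overlapped. Its log2 change was 0.25 ± 0.07 (limma adjusted p = 0.0167), and 1369180_at of the same gene had 0.21 ± 0.08 (limma adjusted p = 0.0654). The latter passed after median centring (0.24, limma adjusted p = 0.0434). It also passed without young rat 2 (limma adjusted p = 0.0483) or young rat 11 (limma adjusted p = 0.0198). On the deposited scale the change of 1370812_at was 0.06 (adjusted p = 0.515) and after centring on the hybridization controls 0.17 (adjusted p = 0.157), neither of which passed.

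Mcl1 and Bcl2l2 each had 1 probe set past the threshold, in opposite directions. Mcl1, a short-lived protein that binds Bim and Bak, had 9.20, 9.25 and 9.46 in aged and 8.89, 9.10 and 9.20 in young rats on 1370141_at, a change of 0.22 ± 0.07 (limma adjusted p = 0.0238). The highest young rat and the lowest aged rat met at 9.20. Its other probe set, 1372520_at, had -0.11 ± 0.06 (limma adjusted p = 0.181), so the probe sets of Mcl1 disagreed in sign, and on the deposited scale 1370141_at itself had -0.11. Without young rats 1, 10 and 11 Mcl1 1372520_at passed as lower in aged rats (-0.18, limma adjusted p = 0.0418). It also passed without young rat 11 alone (-0.16, limma adjusted p = 0.031) and on the deposited scale (-0.29, limma adjusted p = 0.0107). The Mcl1 1370141_at call was lost without young rat 10, aged rat 8 or aged rat 9, each in turn (adjusted p of 0.0532 to 0.0549), and without young rats 1, 10 and 11 together (adjusted p = 0.0936).

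Bcl2l2, whose product is needed for spermatogenesis in mice, had 7.57, 7.75 and 7.88 in aged and 8.05, 8.18 and 8.46 in young rats on 1393707_at. Every aged rat was below every young rat, and the log2 change was -0.47 ± 0.08 (limma adjusted p = 0.00107). The dim probe set 1369611_at had -0.06 ± 0.07 (limma adjusted p = 0.539), but passed on the deposited scale (-0.37, limma adjusted p = 0.0204). Bcl2, the founding member of the family, had 5.73, 5.87 and 5.92 in aged and 5.51, 5.72 and 5.86 in young pachytene spermatocytes, with overlapping groups and a change of 0.13 ± 0.06 that did not pass (limma adjusted p = 0.133). After median centring Bcl2 passed (0.18, limma adjusted p = 0.0365).

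Among the effectors, Bok was the member with the smallest adjusted p and the largest change. Bok resembles Bax and Bak in structure and can open mitochondria without them. On 1373733_at the aged rats 2, 3, 5, 8, 9 and 10 had 9.78, 9.76, 9.48, 9.51, 10.02 and 9.96, and the young rats 1, 2, 3, 10, 11 and 13 had 11.44, 10.38, 10.60, 10.86, 10.63 and 10.58. The groups did not overlap, and young rat 1 was the highest. The log2 change was -0.997 ± 0.16 (limma adjusted p = 0.00096). On 1369084_a_at the values were 8.94, 9.15 and 9.40 in aged and 9.60, 9.68 and 10.14 in young rats, again with all aged rats below, and the change was -0.61 ± 0.10 (limma adjusted p = 0.00119). Bak1 was dim and had -0.02 ± 0.05 (limma adjusted p = 0.823).

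**Figure D2:**
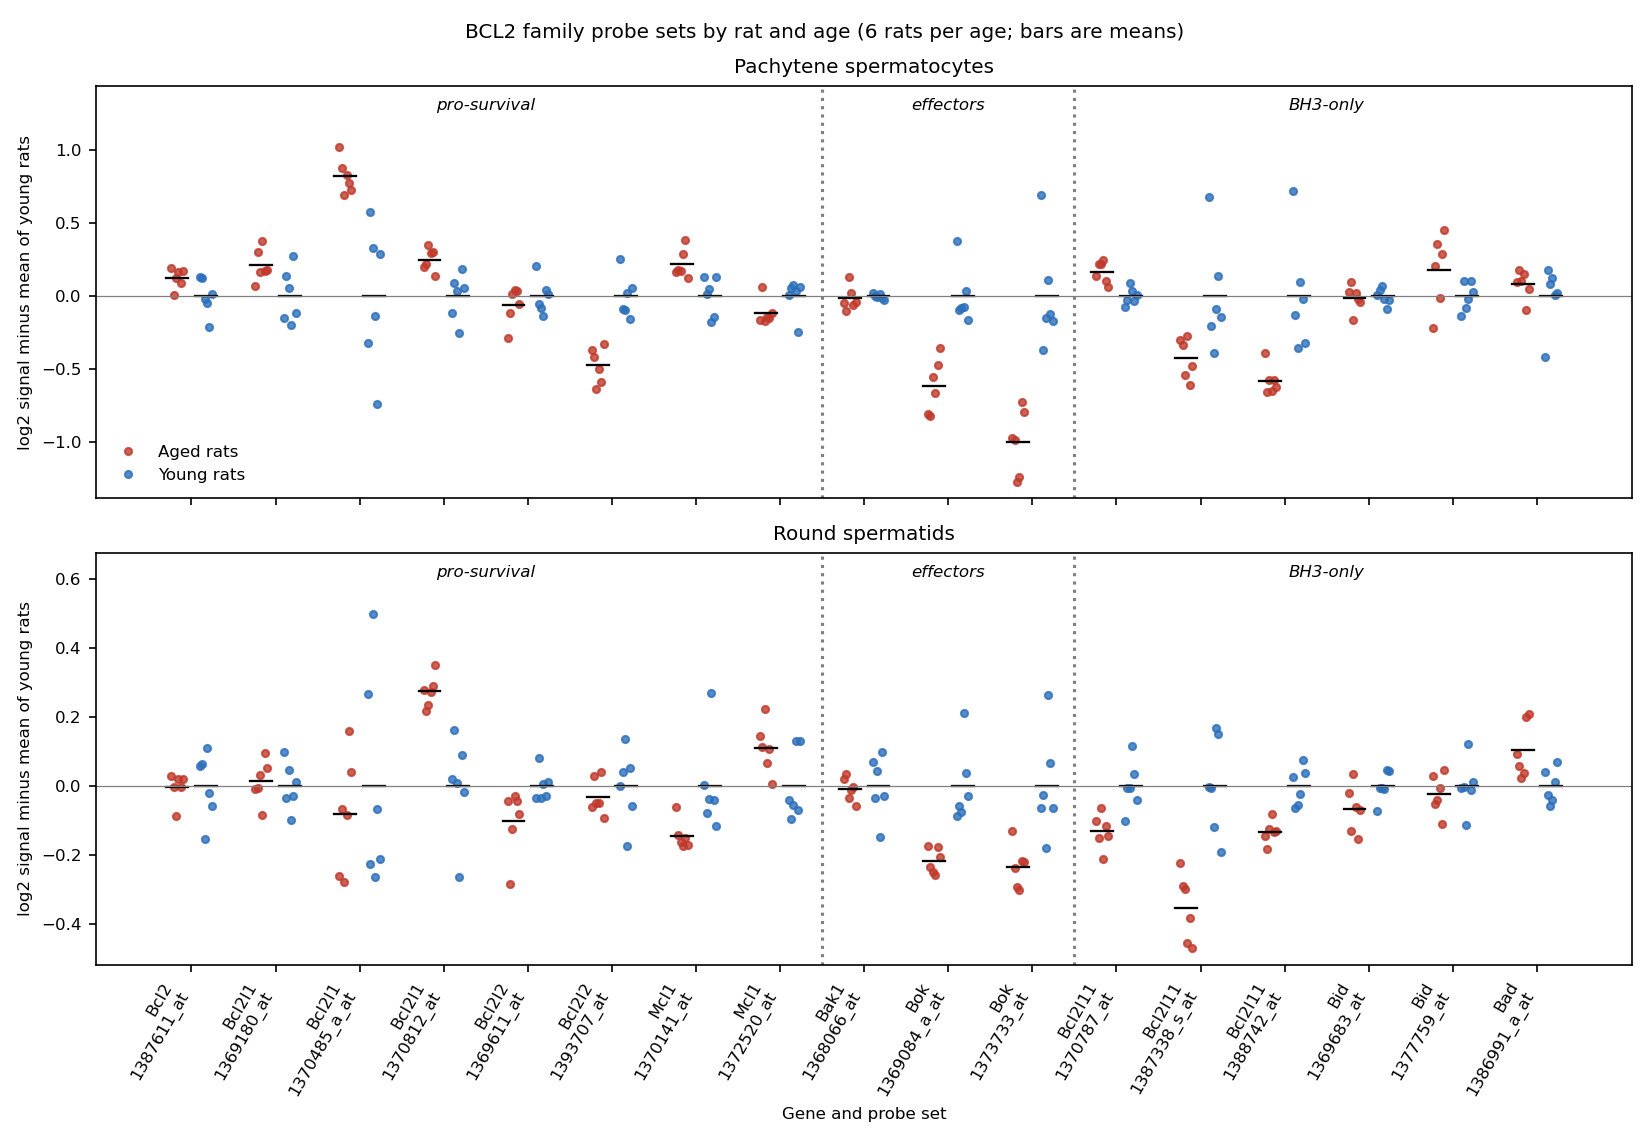
Log2 signal of each probe set minus the mean of the young rats of the same cell type (y axis), in pachytene spermatocytes (top) and round spermatids (bottom, with a narrower axis). Points are single rats, aged left of young, and bars are means of 6 rats. The aged points of both Bok probe sets lie below all young points in pachytene spermatocytes.

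Markers of Sertoli cells were lower in aged rats in the same arrays. The mean log2 signal of the 21 measured Sertoli cell markers was 9.10 to 9.40 in aged and 9.80 to 10.46 in young pachytene arrays, and 18 of the 21 were lower and 1 was higher in aged rats, with a median log2 change of -0.97. Among them Wt1 averaged 9.13 in aged and 10.33 in young, and Clu 13.02 in aged and 13.99 in young pachytene arrays, while Amh, a product of immature Sertoli cells, averaged 6.74 in both. Young rat 1 had the highest Sertoli cell marker mean of the pachytene arrays (10.46) and the highest signal on both Bok probe sets. Its place was not particular to Sertoli cell markers. Among the young pachytene arrays rat 1 was also highest for Leydig cell, peritubular, macrophage, spermatogonial, round spermatid and late spermiogenesis markers. It was lowest for pachytene spermatocyte markers. Aged rats 5 and 8 had the lowest Sertoli cell marker means (9.11 and 9.10) and the lowest signals of Bok 1373733_at, while Bok 1369084_a_at was lowest in aged rats 3 and 2 (8.94 and 8.95), with rats 8 and 5 at 9.10 and 9.21. Late spermiogenesis markers also differed: 12 of 15 were lower and 1 was higher in aged pachytene arrays, and their mean was 12.52 to 12.99 in aged and 12.83 to 13.87 in young rats. The part of other cells in the Bok result was not tested. Leydig cell (1 of 8 lower), macrophage (2 of 10 lower), peritubular (2 of 6 higher) and spermatogonial markers (2 of 10 lower) had fewer calls than these.

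As a description over the 12 pachytene arrays, the genes whose deviations from the age means were most like those of Bok 1373733_at were Slc25a5 (r = 0.986), an adenine nucleotide carrier of mitochondria, Cul4b (r = 0.983), a ubiquitin ligase scaffold, and Marcksl1 (r = 0.980), among 9502 genes. Young rat 1 was the highest of these arrays on Bok 1373733_at (11.44, next young rat 10 at 10.86). It also lay farthest out on their first principal component (-86.3, next young rat 10 at -47.1). What these correlations come from was not tested.

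**Figure D3:**
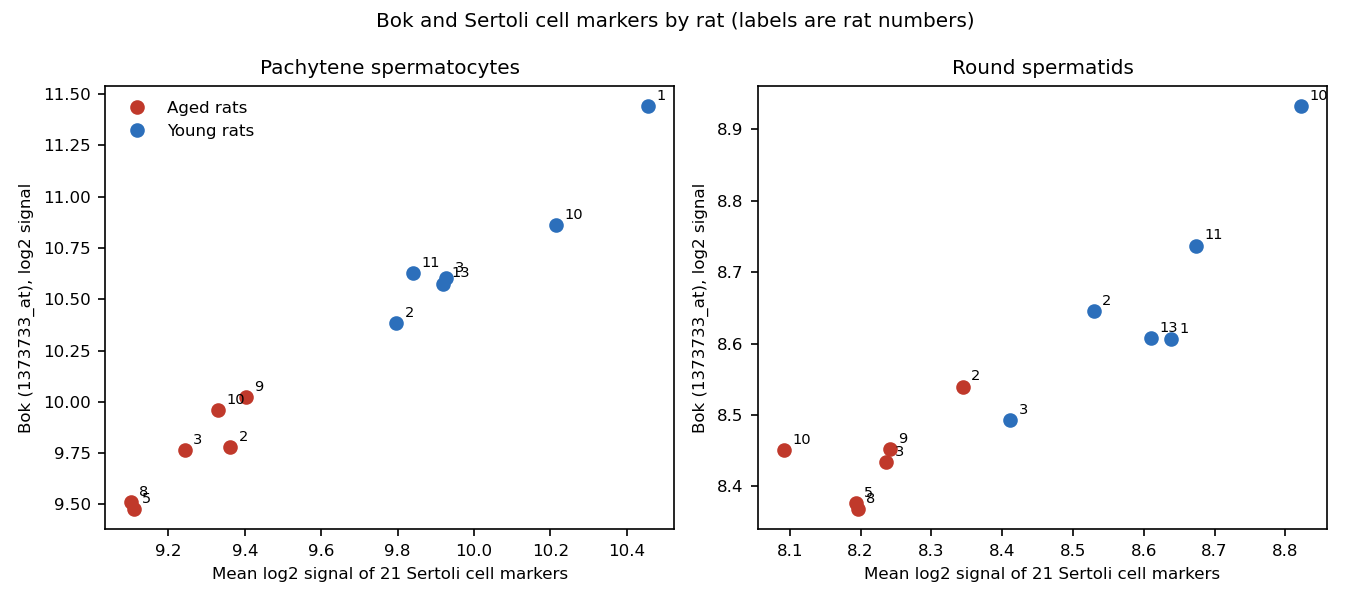
Log2 signal of Bok 1373733_at (y axis) against the mean log2 signal of 21 Sertoli cell markers (x axis), 1 point per rat, in pachytene spermatocytes and in round spermatids. Young rat 1 in pachytene spermatocytes (10.46 and 11.44) and young rat 10 in round spermatids (8.82 and 8.93) are highest on both axes.

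The BH3-only members did not move together in aged pachytene spermatocytes. The 3 probe sets of Bcl2l11, the gene for Bim, which binds all pro-survival members, disagreed. On the dim 1388742_at aged rats had 5.64, 5.70 and 5.91 and young rats 5.94, 6.23 and 7.02, with no overlap and a log2 change of -0.58 ± 0.15 (limma adjusted p = 0.0102). On 1387338_s_at, whose ending marks probes that can match transcripts of more than 1 gene, aged rats had 5.12, 5.32 and 5.46 and young rats 5.35, 5.62 and 6.41, with overlap and a change of -0.42 ± 0.15 (limma adjusted p = 0.0373). Young rat 1 was the highest on both of these probe sets.

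On Bcl2l11 1370787_at, aged rats had 6.76, 6.87 and 6.95 and young rats 6.62, 6.68 and 6.79, a change of 0.17 ± 0.05 in the opposite direction (limma adjusted p = 0.0192). Without young rats 1, 10 and 11 the calls of 1387338_s_at (-0.18, adjusted p = 0.156) and 1370787_at (0.14, adjusted p = 0.0928) were lost. The call of Bcl2l11 1387338_s_at was also lost when any 1 of young rats 10 and 11 and aged rats 3, 5, 9 and 10 was left out (adjusted p of 0.0514 to 0.0783). On the deposited scale Bcl2l11 1370787_at turned to -0.20 (adjusted p = 0.029). Bid, which caspase-8 cleaves to its active form, had -0.01 (limma adjusted p = 0.867) and 0.18 (limma adjusted p = 0.184) on its 2 probe sets. The second, 1377759_at, passed without aged rat 2 (0.26, limma adjusted p = 0.0289). Bad, which is inactive while phosphorylated and bound by 14-3-3 proteins, had 10.45, 10.64 and 10.72 in aged and 10.12, 10.59 and 10.72 in young rats, and a change of 0.08 ± 0.09 (limma adjusted p = 0.502).

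The second question was the same comparison in round spermatids, where age changes were smaller. In aged round spermatids Bcl2l1 rose on 1 probe set, and Bok and Bcl2l11 fell on all of theirs. By limma 6 of the 17 member probe sets passed, 1 higher and 5 lower, against 17.1% of all probe sets (8.65% higher and 8.48% lower), and Bok and Bcl2l11 gave 5 of the 6. The direction of the member calls turned with the scale: 2 were higher and 5 lower after median centring, but 5 higher and 1 lower on the deposited scale, and 3 higher and none lower after centring on the hybridization controls. The groups did not overlap for 4 of the 17, 1 above and 3 below, against 7.92% of all probe sets.

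Bcl2l1 1370812_at had 10.98, 11.04 and 11.12 in aged and 10.50, 10.78 and 10.93 in young round spermatids. All aged rats were above all young rats, by 0.27 ± 0.06 on the log2 scale (limma adjusted p = 0.00659). After median centring the change was 0.39 with a wider spread (adjusted p = 0.0766). The other 7 pro-survival probe sets did not pass: their log2 changes ran from -0.14 ± 0.05 (Mcl1 1370141_at, limma adjusted p = 0.0926) to 0.11 ± 0.05 (Mcl1 1372520_at, limma adjusted p = 0.15). On other scales Mcl1 1372520_at passed as higher in aged rats. It had 0.19 after median centring, 0.32 on the deposited scale and 0.36 after centring on the hybridization controls (limma adjusted p of 0.00189 to 0.0148). Bcl2l1 1369180_at passed on the deposited scale (0.15, limma adjusted p = 0.0267). Bcl2 had 8.02, 8.11 and 8.13 in aged and 7.95, 8.12 and 8.22 in young rats, with overlapping groups (limma adjusted p = 0.969).

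Bok 1369084_a_at had 8.68, 8.72 and 8.76 in aged and 8.85, 8.89 and 9.15 in young round spermatids, all aged rats below, with a change of -0.22 ± 0.05 (limma adjusted p = 0.0076). Bok 1373733_at had 8.37, 8.44 and 8.54 in aged and 8.49, 8.63 and 8.93 in young rats, with overlapping groups and a change of -0.23 ± 0.06 (limma adjusted p = 0.018). Young rat 10 was the highest on both Bok probe sets. It also had the highest Sertoli cell marker mean of the round arrays, which ran from 8.09 to 8.34 in aged and from 8.41 to 8.82 in young rats, with 9 of the 21 markers lower in aged rats and none higher. Among the young round arrays rat 10 was also highest for macrophage, spermatogonial and late spermiogenesis markers. It was lowest for pachytene spermatocyte markers and for round spermatid and acrosome markers. The part of other cells in the Bok result was not tested here either. Without young rats 1, 10 and 11 Bok 1373733_at had -0.15 (adjusted p = 0.0956), and on the deposited scale 1369084_a_at and 1373733_at had -0.02 and -0.06, neither past the threshold. After centring on the hybridization controls they had 0.02 and -0.02.

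All 3 probe sets of Bcl2l11 fell in aged round spermatids. The probe set 1387338_s_at had 7.80, 7.93 and 8.04 in aged and 8.08, 8.26 and 8.43 in young rats, without overlap and with the smallest adjusted p of the members (-0.35 ± 0.06, limma adjusted p = 0.00372), but centring on the hybridization controls gave -0.17 (adjusted p = 0.123). On the dim 1388742_at aged rats had 6.90, 6.95 and 7.005 and young rats 7.02, 7.09 and 7.16, also without overlap, and the change was -0.13 ± 0.03 (limma adjusted p = 0.0107). Its mean percentile was 11.6 in aged and 17.5 in young round arrays, where the brightest TrpnX control probe set averaged 13.1 and 13.4. On 1370787_at the change was -0.13 ± 0.04 (limma adjusted p = 0.0283), a call that was lost without young rat 11 or any 1 of aged rats 3, 8, 9 and 10 (adjusted p of 0.0519 to 0.0678). On the deposited scale and after centring on the hybridization controls, the changes of Bcl2l11 1370787_at and 1388742_at were slightly above 0 (0.00 to 0.05), and neither passed. Without young rats 1, 10 and 11 neither passed (adjusted p of 0.108 for 1370787_at and 0.129 for 1388742_at). Markers of germ cells also differed in the round arrays: of the pachytene spermatocyte markers 4 of 11 were higher and none lower in aged rats, with a median log2 change of 0.24, and of the late spermiogenesis markers 4 of 15 were lower and none higher, with a median of -0.062. Their part in these member results was not tested.

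Over the 12 round arrays, the genes most like Bcl2l11 1387338_s_at in their deviations from the age means were Gamt (r = 0.937), which makes creatine, Fam241b (r = 0.935) and Leprotl1 (r = 0.929), among 9770 genes. Bid and Bad did not pass in round spermatids on the reported scale. Bad had 8.77, 8.82 and 8.95 in aged and 8.69, 8.74 and 8.82 in young rats (0.10 ± 0.04, limma adjusted p = 0.0919). On the other scales Bad passed as higher in aged rats. It had 0.16 after median centring (limma adjusted p = 0.0323) and 0.29 on the deposited scale (limma adjusted p = 0.000991). After centring on the hybridization controls it had 0.33 (limma adjusted p = 0.00353).

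The age changes in the 2 cell types were compared directly on a scale common to both, as the change in round spermatids minus that in pachytene spermatocytes. This difference passed for 5 of the 17 member probe sets, 2 higher and 3 lower, against 13% of all probe sets (5.98% higher and 7.03% lower). Here too the direction turned with the scale, and each scale kept a background offset added to the pachytene values. After median centring 3 were higher and 6 lower. On the deposited scale with the offset 11 were higher and none lower, and after centring on the hybridization controls 6 higher and none lower. Bok 1373733_at had the largest, 0.75 ± 0.19 (limma adjusted p = 0.013): it fell less with age in round spermatids than in pachytene spermatocytes. The change of Bcl2l2 1393707_at was also less negative in round spermatids (0.24 ± 0.08, limma adjusted p = 0.0365). For Mcl1 1370141_at (-0.32 ± 0.08, limma adjusted p = 0.00906) and Bcl2l11 1370787_at (-0.25 ± 0.05, limma adjusted p = 0.00343) the age change had opposite signs in the 2 cell types, above 0 in pachytene spermatocytes and below 0 in round spermatids. On the deposited scale with the offset both differences were above 0 (0.18 and 0.12). Only that of Bok 1373733_at, of these 5, passed under every alternative run.

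For Bcl2l11 1387338_s_at the difference was -0.32 ± 0.11 (limma adjusted p = 0.0477) on the common scale. The change was negative in both cell types, and within each cell type it measured -0.35 in round and -0.42 in pachytene spermatocytes, so the order of the 2 changes depended on the scale. This call was lost when any 1 of 8 rats (young 2, 10 and 11, aged 3, 5, 8, 9 and 10) was left out (adjusted p of 0.0703 to 0.129), and that of Bcl2l2 1393707_at when any 1 of 7 (young 1, 10 and 13, aged 3, 5, 8 and 9) was (adjusted p of 0.0726 to 0.0989). Without young rats 1, 10 and 11 the differences of Bcl2l2 1393707_at (0.17, adjusted p = 0.177), Mcl1 1370141_at (-0.20, adjusted p = 0.0507) and Bcl2l11 1387338_s_at (-0.27, adjusted p = 0.069) did not pass. The difference of Mcl1 1372520_at passed without these rats (0.31, limma adjusted p = 0.0236), against 0.23 (limma adjusted p = 0.0592) as reported.

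Pro-survival and pro-death members were then set side by side, as a description without a test. In aged pachytene spermatocytes 3 of 8 pro-survival probe sets rose and 1 fell (median log2 change 0.17), while 1 of 9 pro-death probe sets rose and 4 fell (median -0.02), beside 22.1% higher, 15.4% lower and a median of 0.05 over all probe sets. In aged round spermatids 1 of 8 pro-survival probe sets rose and none fell (median -0.02), and none of the 9 pro-death probe sets rose and 5 fell (median -0.13), beside 8.65% higher, 8.48% lower and a median of 0.00 over all. Of the pro-death calls in each cell type, 2 were of Bok and the others of Bcl2l11. Bok and Bcl2l11 thus alone made up the class's calls on the reported scale, with Bak1, Bid and Bad at none. On the deposited scale Bak1 and Bid 1369683_at passed as lower in aged pachytene spermatocytes, and Bak1 and Bad as higher in aged round spermatids. Bad also passed as higher there after median centring and after centring on the hybridization controls.

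For each rat, the mean of the pro-survival probe sets minus that of the pro-death probe sets was taken relative to the young mean. In pachytene spermatocytes it was 0.369 ± 0.0446 (SD; 0.302 to 0.436) in aged rats and 0 ± 0.164 (-0.189 to 0.160) in young rats, so the ages did not overlap. Without the Bok probe sets it was 0.209 (0.157 to 0.266) in aged rats and -0.138 to 0.129 in young rats, and without young rats 1, 10 and 11 the difference between the ages was 0.224. Taken as a mean over genes it was 0.272 (0.224 to 0.328) in aged and -0.136 to 0.120 in young rats. In round spermatids it was 0.122 ± 0.0387 (0.0747 to 0.183) in aged and 0 ± 0.0835 (-0.108 to 0.114) in young rats, with overlap. This difference does not change when an array is centred on another value, because both classes come from the same array.

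**Figure D4:**
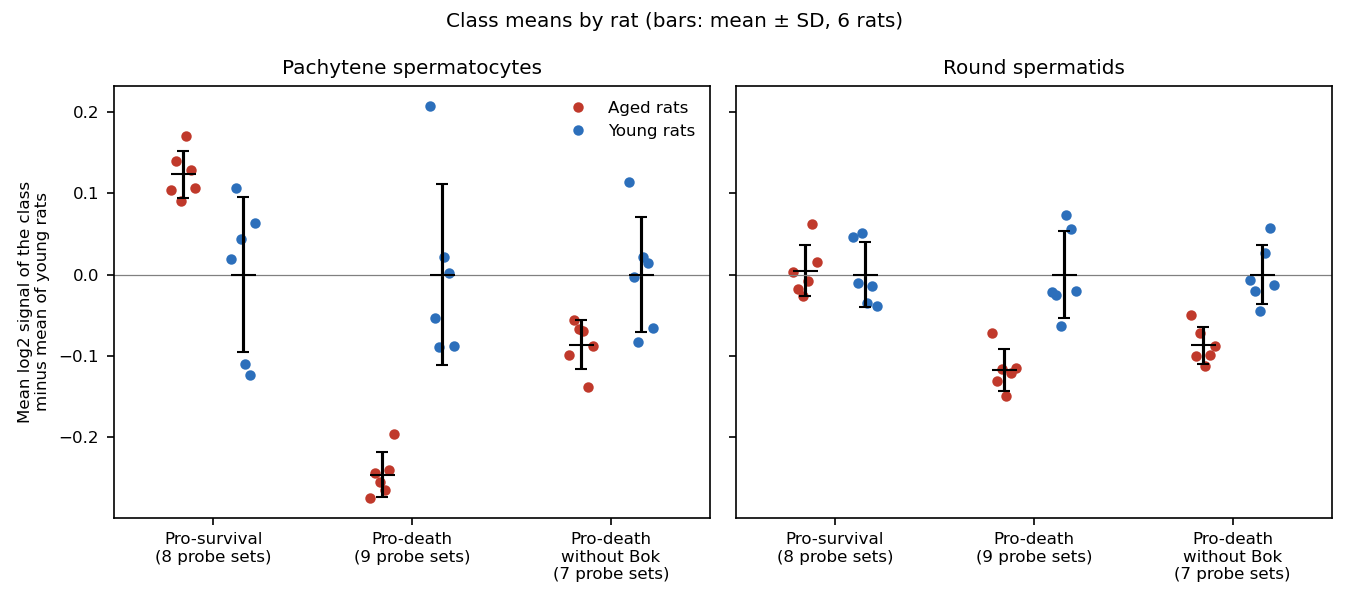
Mean log2 signal of the 8 pro-survival probe sets, the 9 pro-death probe sets and the 7 pro-death probe sets without Bok, minus the mean of the young rats (y axis), per rat with mean ± SD of 6 rats, aged left of young. In pachytene spermatocytes the pro-death mean was -0.275 to -0.195 in aged and -0.0894 to 0.208 in young rats.

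The third comparison was between the cell types. Round spermatids had more Bcl2, more Bcl2l1 on 1 probe set and more Bcl2l11 on 1 probe set than pachytene spermatocytes, each by about 2-fold, and less Bad and Bok. By limma 14 of the 17 member probe sets passed, 7 higher and 7 lower in round spermatids, against 85.1% of all probe sets (46.9% higher and 38.3% lower). The groups did not overlap for 10, 5 above and 5 below, against 45.6% of all probe sets. The family was thus called about as often as the array as a whole. Pachytene values were raised by a background offset before this comparison. The quantile normalization after it keeps only ranks within an array. The offset thus acts only through the distribution shared by all arrays, where it compresses the folds of dim probe sets, and does not correct the background of single probe sets.

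Bcl2 had log2 signals of 8.14, 8.27 and 8.30 in aged and 8.05, 8.28 and 8.40 in young round spermatids, against 7.19, 7.24 and 7.26 in aged and 7.11, 7.19 and 7.24 in young pachytene spermatocytes. All round arrays were above all pachytene arrays, by 1.04 ± 0.03 (2.06-fold, limma adjusted p = 6.61e-19). Its percentile was 64.4 in both round groups, against 29.6 in aged and 27.3 in young pachytene spermatocytes, so the pachytene signal was dim.

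Bcl2l1 1370812_at had 11.13, 11.18 and 11.25 in aged and 10.70, 10.95 and 11.08 in young round spermatids, against 10.14, 10.26 and 10.36 in aged and 9.75, 10.05 and 10.19 in young pachytene spermatocytes. The difference was 0.93 ± 0.04 (1.91-fold, limma adjusted p = 3.14e-15), and the other 2 Bcl2l1 probe sets did not pass (0.03, limma adjusted p = 0.384 for 1369180_at, and 0.17, limma adjusted p = 0.118 for 1370485_a_at). Both Mcl1 probe sets passed with opposite signs, 0.42 ± 0.04 on 1370141_at (limma adjusted p = 6.97e-10) and -0.93 ± 0.04 on 1372520_at (limma adjusted p = 3.76e-16). The first of these also depended on the scale, with -0.16 after median centring, so no direction is given for Mcl1 as a gene. Bcl2l2 1393707_at was lower in round spermatids (-0.66 ± 0.04, limma adjusted p = 9.16e-14), while the dim 1369611_at had 0.02 (limma adjusted p = 0.577).

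**Figure D5:**
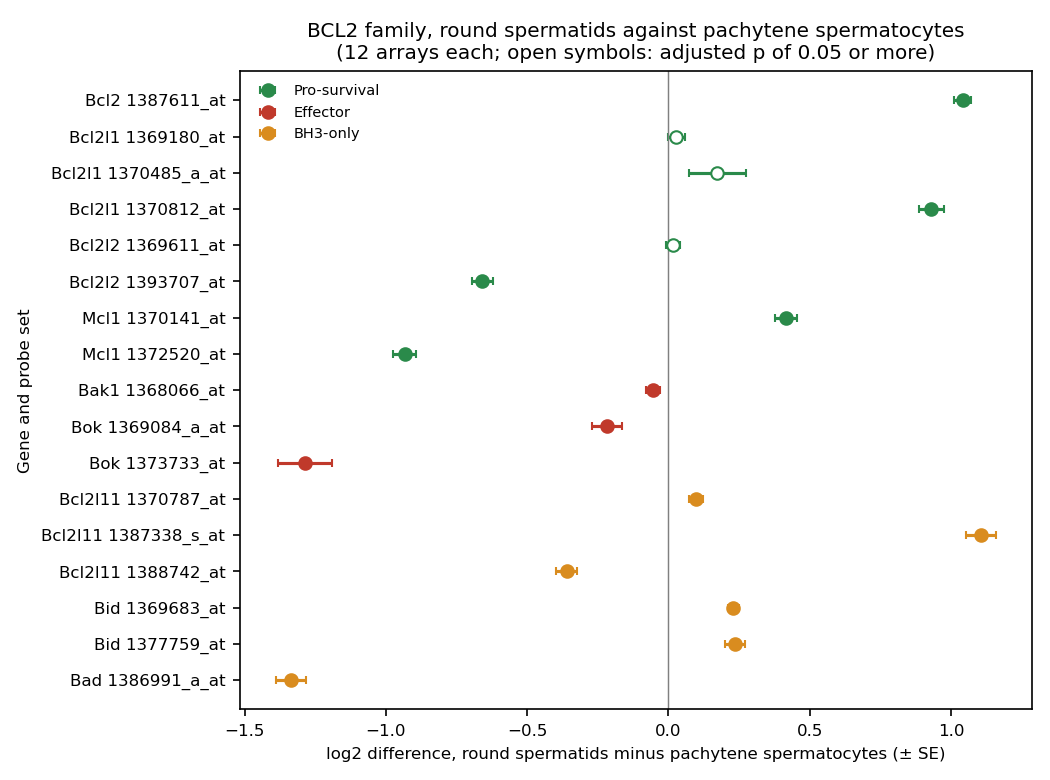
Log2 difference of each probe set, round spermatids minus pachytene spermatocytes (x axis), with its SE, from 12 arrays of each cell type; open symbols did not pass an adjusted p of 0.05. Bcl2l11 1387338_s_at and Bcl2 lie farthest to the right (1.11 and 1.04), and Bad and Bok 1373733_at farthest to the left (-1.34 and -1.29).

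Of the effectors, Bok was lower in round spermatids on both probe sets. Bok 1373733_at had 8.60, 8.69 and 8.80 in aged and 8.75, 8.90 and 9.23 in young round spermatids, against 9.34, 9.61 and 9.85 in aged and 10.21, 10.46 and 11.37 in young pachytene spermatocytes. No array overlapped, and the difference was -1.29 ± 0.10 (2.44-fold, limma adjusted p = 1.12e-11). The other Bok probe set had -0.22 ± 0.05 (limma adjusted p = 0.000616) over both ages, and -0.06 (adjusted p = 0.34) in aged rats alone. Of the Sertoli cell markers, 17 of 21 were lower and 4 higher in round spermatids, with a median log2 difference of -1.02. Their part in the Bok difference was not tested. Macrophage markers (9 of 10 higher, none lower, median 0.84) and peritubular markers (5 of 6 higher, none lower, median 0.55) went the other way. Of 8 Leydig cell markers 1 was higher and 4 lower. The part of these cells in the differences of Bcl2, Bcl2l1 and Bcl2l11 was not tested either. Bak1 had -0.05 ± 0.03 (limma adjusted p = 0.0474), which was 0.0724 with the rat as a block, and which was lost when any 1 of 7 rats (young 2, 10 and 13, aged 5, 8, 9 and 10) was left out (adjusted p of 0.0597 to 0.12). After median centring Bak1 had 0.064, so it is given no direction.

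Of the BH3-only members, Bad showed the largest difference. It had 9.06, 9.11 and 9.25 in aged and 8.97, 9.03 and 9.11 in young round spermatids, against 10.28, 10.49 and 10.58 in aged and 9.95, 10.44 and 10.58 in young pachytene spermatocytes. Every round array was below every pachytene array, by -1.34 ± 0.05 on the log2 scale (2.53-fold, limma adjusted p = 8.56e-17). Its percentile was 78.0 in aged and 76.7 in young round spermatids, against 89.1 in aged and 88.5 in young pachytene spermatocytes, so this was a change of a bright probe set.

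Bcl2l11 again differed by probe set. On 1387338_s_at round spermatids had 7.84, 8.01 and 8.17 in aged and 8.22, 8.46 and 8.68 in young rats, against 6.99, 7.05 and 7.10 in aged and 7.06, 7.15 and 7.45 in young pachytene spermatocytes. The difference was 1.11 ± 0.05 (2.15-fold, limma adjusted p = 3.13e-15), with no overlap. Its percentile was 54.0 to 62.7 in aged and 63.7 to 72.0 in young round spermatids, against 16.8 to 22.7 in aged and 20.6 to 39.8 in young pachytene spermatocytes, so the pachytene signal was dim here as for Bcl2. The dim probe set 1388742_at (-0.36 ± 0.04, limma adjusted p = 3.23e-09) and 1370787_at (0.10 ± 0.03, limma adjusted p = 0.00128) did not share its size. The call of 1370787_at was not made in aged rats alone (-0.02, adjusted p = 0.45) or after centring on the hybridization controls (0.039, adjusted p = 0.516). The 2 Bid probe sets were each higher in round spermatids by 0.23 (limma adjusted p = 4.58e-10 for the dim 1369683_at and 2.13e-06 for 1377759_at). After centring on the hybridization controls 1377759_at did not pass (0.14, adjusted p = 0.0562).

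Other genes of the family were read on the brightest probe set of each, for 11 of 16 listed symbols. In aged pachytene spermatocytes 2 of the 11 rose and 1 fell, against 22.1% and 15.4% of all probe sets: Bcl2l12 by 0.69 ± 0.18 (limma adjusted p = 0.0111), Bcl2l10, a pro-survival member, by 0.38 ± 0.08 (limma adjusted p = 0.00341), and Bnip3, a mitophagy receptor, at -0.40 ± 0.09 (limma adjusted p = 0.00481). On the deposited scale 1 was higher and 8 were lower, and after centring on the hybridization controls 1 and 3. In aged round spermatids Bcl2l12 rose by 0.32 ± 0.08 (limma adjusted p = 0.0181) and Bik, a BH3-only gene, had -0.13 ± 0.04 (limma adjusted p = 0.0253), where 8.65% of all probe sets were higher and 8.48% lower. Here 6 of the 11 were higher and none lower on the deposited scale, and 4 and none after centring on the hybridization controls. Without young rats 1, 10 and 11 neither passed in round spermatids (0.20, adjusted p = 0.0818 for Bcl2l12, and -0.09, adjusted p = 0.28 for Bik), and Bcl2l10 in pachytene spermatocytes did not pass on the deposited scale (0.01, adjusted p = 0.929). By limma none of the 11 passed for a difference of the age change between the cell types as reported, against 13% of all probe sets, and 1 of them had an unadjusted p under 0.05. This was Bcl2l12 at -0.49 (limma adjusted p = 0.157). On the deposited scale with the offset 10 were higher. After centring on the hybridization controls 2 were higher, and after median centring 1 was higher and 2 lower.

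Between cell types, 7 of these 11 were higher and 2 lower in round spermatids, against 46.9% and 38.3% of all probe sets, 85.1% in all. Bcl2l14 (Bcl-G) stood out with 2.23 ± 0.17, or 4.68-fold (limma adjusted p = 1.13e-11). Bbc3, the BH3-only gene for Puma, had 0.38 ± 0.03 (limma adjusted p = 3.42e-11), and Bnip3, Bik, Bcl2l10, Bcl2l15 and Bcl2a1 had 0.15 to 0.26, of which Bnip3 turned to -0.11 after median centring. Bnip3l, a mitophagy receptor related to Bnip3, was lower (-0.40 ± 0.04, limma adjusted p = 1.8e-09), as was Bcl2l12 (-0.29 ± 0.11, limma adjusted p = 0.0228).

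Regulators and partners of the family were read in the same way, for 32 of 37 listed symbols. In aged pachytene spermatocytes 4 rose and 15 fell, against 22.1% and 15.4% of all probe sets. This split depended on the scale: 14 rose and 13 fell after median centring, none rose and 18 fell on the deposited scale, and 3 rose and 14 fell after centring on the hybridization controls. The median age change of all probe sets itself differed between these scales: it was 0.05 as reported, 0.13 after median centring and -0.24 on the deposited scale. A count of 1 that rose and 11 that fell was left without young rats 1, 10 and 11. Among those that fell were the 14-3-3 genes Ywhah (-0.62 ± 0.08, limma adjusted p = 0.000301) and Ywhag (-1.11 ± 0.16, limma adjusted p = 0.000691), whose products can hold phosphorylated Bad in the cytosol. Foxo3, a transcription factor known to activate Bcl2l11, had -0.93 ± 0.13 (limma adjusted p = 0.000565), and Aifm1, a mitochondrial flavoprotein, -1.17 ± 0.21 (limma adjusted p = 0.00151). These 4 fell under each of these settings. Those that rose were Btrc (0.41), Ywhab (0.21), Mapk8 (0.19) and Diablo (0.15), and Mapk8 turned to -0.23 on the deposited scale.

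In aged round spermatids 6 regulators rose and 3 fell, where 8.65% of all probe sets were higher and 8.48% lower. The counts were 1 and 5 after median centring, 14 and 3 on the deposited scale, 12 and 2 after centring on the hybridization controls, and 1 and 0 without young rats 1, 10 and 11. Diablo (Smac), which is released from mitochondria and frees caspases from their inhibitors, rose by 0.70 ± 0.15 (limma adjusted p = 0.00733), Ywhaz by 0.36, Ywhaq by 0.32 and Vdac3, a mitochondrial pore, by 0.19. Pim1, a kinase that phosphorylates Bad, had -0.58 ± 0.16 (limma adjusted p = 0.0261), Trim17 -0.38 and Ywhag -0.29. The age change was higher in round than in pachytene spermatocytes for 13 regulators, with Ywhah (0.60), Pim2 (0.43), Vdac3 (0.20) and Mtch2 (0.18) at the smallest p, and lower for 1, Ywhab (-0.21). Over all probe sets 5.98% were higher and 7.03% lower. The regulator counts were 9 and 3 after median centring and 25 and 0 on the deposited scale with the offset. They were 18 and 0 after centring on the hybridization controls, and 7 and 0 without young rats 1, 10 and 11. After median centring Vdac3 and Mtch2 had -0.16 and -0.19. On the deposited scale with the offset Ywhab had 0.24, so no direction is given for these 3.

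Between cell types 17 of the 32 regulators were higher and 12 lower in round spermatids, against 46.9% and 38.3% of all probe sets, and 15 and 14 after median centring. The ubiquitin pathway genes Huwe1 (1.43 ± 0.07, limma adjusted p = 2.79e-15), whose product marks Mcl1 for degradation, Usp9x (1.27 ± 0.07, limma adjusted p = 1.3e-13), whose product removes such marks from Mcl1, and Btrc (1.18 ± 0.05, limma adjusted p = 3.32e-16) were higher, as was Bag6 (0.72). The 14-3-3 genes Ywhah (-1.96 ± 0.06, limma adjusted p = 4.24e-19) and Ywhaz (-1.65 ± 0.05, limma adjusted p = 1.71e-18), the autophagy gene Becn1 (-1.51 ± 0.04, limma adjusted p = 3.15e-19), whose product binds Bcl2, and the kinase gene Mapk8 (-0.74) were lower.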

How the data were processed

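Total RNA of 24 fractions was measured on Affymetrix rat arrays, with biotin-labelled cRNA per the labels' protocols. The deposited table holds log2 signals per probe set (31099, of which 57 are controls). How probes were summarised into these values, and by which software, the labels do not say, and the number of arrays limits the precision. Groups, ages and rat numbers came from the labels.

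For the age comparisons the deposited log2 values were quantile normalized within each cell type. For the comparison between cell types and for the difference of the age change, an offset of 84.5 was added to the linear pachytene values. Before normalization it brings the mean difference of 45 control probe sets of other organisms to 0. The 24 arrays were then quantile normalized together. This keeps only ranks within an array, so the offset acts only through the shared distribution. Alternatives of both comparisons kept the offset unless its absence is named. Their deposited scale is thus the deposited values with the offset. Tests used limma 3.58.1 in R 4.3.3 (lmFit and eBayes), 2-sided, with Benjamini-Hochberg adjustment over 31042 probe sets and a threshold of 0.05, and were checked on simulated data. Percentiles are ranks within an array. All probe sets of the member genes with exactly 1 symbol are named; other family genes past the threshold are named, and of the regulators up to 4 in each direction with the smallest p, each on its brightest probe set. The members and lists were chosen with earlier results of these data known. Probe set names come from an old platform annotation, and promoters from RefSeq (GRCr8).

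The number in the titles ties both fractions to 1 rat; their deviations from the group means correlated at -0.07 to 0.36, and 6 of 12 rats matched best with their own other fraction. Young and aged rats that share a number are different rats. Alternatives covered the normalization, the offset, dim probe sets, the variance model, 1 probe set per gene, rats left out and blocks. Nothing says how the arrays were run in batches.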

Additional observations from a re-analysis of the deposited data

Results flagged for a closer look

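Of 68 groups of 6 arrays (17 probe sets in 4 groups), 9 held a rat whose gap to its nearest neighbour was large against the group's whole range by Dixon's test; chance alone flags about 1 in 20 groups. Young rat 1 stood apart in pachytene spermatocytes for Bok 1369084_a_at (10.14, high) and Bad 1386991_a_at (10.12, low), and young rat 11 for Mcl1 1372520_at (10.19, low). In aged pachytene spermatocytes rat 3 was high for Mcl1 1372520_at (10.50) and rat 2 for Bcl2l11 1388742_at (5.91). In aged round spermatids rat 5 was low for Bcl2 1387611_at (8.02), rat 3 low for Bcl2l2 1369611_at (7.04) and rat 2 high for Mcl1 1370141_at (9.22). In young round spermatids rat 10 was high for Mcl1 1370141_at (9.55).

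The age change in round spermatids minus that in pachytene spermatocytes passed the test of the difference for 5 probe sets, Bcl2l2 1393707_at (0.24), Mcl1 1370141_at (-0.32), Bok 1373733_at (0.75), Bcl2l11 1370787_at (-0.25) and Bcl2l11 1387338_s_at (-0.32).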

How the results depend on the processing

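Apart from blocks over shared rat numbers, 5 of the 9 member calls for age in pachytene spermatocytes held under every alternative run, as did none of the 6 in round spermatids, 9 of the 14 between cell types and 1 of the 5 for the difference of the age change (Bok 1373733_at). The cause was not tested, except that fewer probe sets or rats enter some fits. The scale matters: the median age change of all probe sets was -0.24 in pachytene and 0.14 in round spermatids on the deposited scale, -0.12 and 0.18 after centring on hybridization controls, 0.13 and 0.01 after median centring, and 0.05 and 0.00 as reported.

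With 1 probe set per gene, 14217 probe sets and 9 members were tested instead of 31042 and 17. A lower count there, or without the dimmest 40%, need not be a lower share. For age in pachytene spermatocytes, 11631 probe sets passed, against 19153 on the deposited scale (1352 higher, 17801 lower), 6537 with 1 probe set per gene and 7656 without young rats 1, 10 and 11. Members past the threshold were 9, against 4 with 1 probe set per gene, and the pro-survival against pro-death members value of 0.369 was 0.224 without young rats 1, 10 and 11 and 0.209 without Bok, the second chosen after seeing the data, as were the mean over genes and the alternatives for the lists of other family genes, regulators and Sertoli cell markers. For age in round spermatids, 5316 passed, against 17172 on the deposited scale (16477 higher, 695 lower), 8716 after centring on hybridization controls (8289 higher, 427 lower) and 1716 without young rats 1, 10 and 11. Members were 6, against 3 under hybridization controls, 3 with 1 probe set per gene and 3 without those rats. Between cell types, 26419 passed, against 16874 without the dimmest 40% and 12525 with 1 probe set per gene, and members were 14, against 8. For the difference of the age change, 4039 passed, against 11401 after median centring, 25154 on the deposited scale with the offset and 8152 under hybridization controls. The count was 2502 with 1 probe set per gene and 2599 without those rats. Members were 5, against 9, 11, 3 without the offset, 3 with 1 probe set per gene and 3 without those rats.

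Leaving out 1 rat at a time gave 8943 to 12547 probe sets, 7 to 10 members and a class value of 0.332 to 0.402 for age in pachytene spermatocytes; 3609 to 6550, 5 to 6 and 0.102 to 0.144 in round spermatids; 26050 to 26296, 13 to 14 and 0.284 to 0.318 between cell types; and 2285 to 4822 and 3 to 5 for the difference of the age change.

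A replicate block over the numbers shared by different young and aged rats (3 in each cell type; correlations of -0.58 to 0.02 and -0.30 to -0.02) left 367 probe sets and 1 member in pachytene and 0 and 0 in round spermatids, where the samples share only a number. With the rat as a fixed replicate block between cell types, Bak1 was lost (adjusted p = 0.0724), and as a random replicate block Mcl1 1372520_at (0.23, adjusted p = 0.0473) and Bok 1369084_a_at (0.31, adjusted p = 0.0436) passed for the difference of the age change. The block changed no other member call.

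Directions turned as follows. Age in pachytene spermatocytes: on the deposited scale Mcl1 1370141_at -0.11 and Bcl2l11 1370787_at -0.20, and under hybridization controls Bcl2l11 1370787_at -0.079. Age in round spermatids: on the deposited scale Bak1 0.13, Bcl2l11 1370787_at 0.0048 and 1388742_at 0.0070, and under hybridization controls Bcl2l11 0.044 and 0.046 and Bok 1369084_a_at 0.022. Between cell types, with the offset kept: Mcl1 1370141_at -0.16 (median centring), -0.18 (deposited with the offset) and -0.24 (hybridization controls). Bak1 turned to 0.064 (median centring) and 0.045 (deposited with the offset), and Bcl2l11 1370787_at to -0.025 in aged rats only. Difference of the age change, deposited scale with the offset: Bcl2 0.21, Bcl2l1 0.22 (1369180_at) and 0.47 (1370812_at), and Mcl1 1370141_at 0.18. On the same scale Bak1 had 0.31, Bcl2l11 0.12 (1370787_at) and 0.071 (1387338_s_at), and Bid 1369683_at 0.16. Under hybridization controls Bcl2l1 1370812_at had 0.40, Mcl1 1370141_at 0.10 and Bcl2l11 1370787_at 0.044. Signals near the floor limit what the 4 dimmest member probe sets can show, and in pachytene spermatocytes also Bcl2 and Bcl2l11 1387338_s_at.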
